A study of Rattus norvegicus with 16 samples.

Results

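A group of 8 genes of the red cell lineage was followed in the lungs of 16 male Sprague-Dawley rats, 12 of them kept in low oxygen with or without estradiol. They were Hemgn, Alas2, Slc4a1, Epb42, Rhag, Ahsp, Klf1 and Tfrc, and all 8 of the 8 were measured among 14506 genes. Each gene was read from a probe set annotated to that gene alone, and where several existed the one with the highest mean over the 16 arrays was used. This choice arose for Rhag only, whose 2 probe sets held identical values on every array. No filter on low values was applied.

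Total RNA from the right lung was measured on Affymetrix rat arrays, with 1 array for each of the 4 rats of a group, and the values are log2 signals. Per the labels the rats weighed 250-300 g, and no age is given. The normoxia group was the normoxic control. The hypoxia group spent 2 weeks in hypobaric hypoxia at 362 mmHg, which corresponds to 10% oxygen at sea level. The third group, hypoxia with estradiol, also received E2 (estradiol, the main circulating estrogen) from a subcutaneous osmotic pump at 75 µg/kg/day for 3 weeks, starting 1 week before hypoxia. The fourth group, hypoxia with estradiol and fulvestrant, received in addition daily subcutaneous ICI 182,780 (fulvestrant, an antagonist of the nuclear estrogen receptors) at 3 mg/kg/day. Whether a pump without drug was implanted in rats of the other groups is not stated in the labels. The series title poses the question whether estrogen receptors mediate effects of estradiol in the hypoxic lung.

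Red cells are made mainly in the bone marrow of adult rats, where erythropoietin, a hormone that the kidney releases in low oxygen, supports erythroid precursors. Precursors accumulate globin, haem and membrane proteins and then lose the nucleus. The resulting reticulocytes still carry RNA when they enter the blood and lose it as they mature. The lung receives the whole output of the right heart, and whole lung RNA can include RNA of blood cells held in its vessels. Here the vessels had been flushed with saline through the pulmonary artery, per the labels. In whole tissue, fewer cells of a type and less RNA per cell cannot be told apart.

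The deposited values had already been aligned between arrays, so likeness of the arrays is partly imposed and does not measure RNA quality. Array medians lay between 7.69 and 7.77, and the correlation across genes between any 2 arrays was between 0.985 and 0.996. The mean of 12 lung markers was between 12.85 and 12.98 on every array, and that of 10 markers of other organs between 6.95 and 7.46. Normoxia replicate 4 has a title that says normoxia and a treatment field that says hypoxia, and was kept as normoxia. Hypoxia replicate 3 stood apart from the other 3 hypoxia arrays for the erythroid genes, and estradiol replicate 3 from the higher arrays of its group, so counts of passing genes that change without hypoxia replicate 3 are given both ways. The samples were submitted group by group and no batch is named, so batch and treatment cannot be told apart.

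The sequence just before the start of a gene is where many erythroid genes carry GATA motifs, the sites of GATA1, the master factor of the lineage, and CACCC motifs, the sites of KLF1. RefSeq entries for rat (GRCr8) gave the 250 bases before a start for 6 of the 8 genes, in 7 entries, since Hemgn has 2. Of these, 4 are shown, 5' to 3' on the gene's strand, with matches in capitals: Hemgn and Alas2 because their signals varied most among the genes with an entry, Klf1 because it codes for the factor itself, and Tfrc because it did not vary with the rest. GATA was searched as AGATAA or TGATAA and CACCC as CCACCC or CACACCC, both on either strand.
Hemgn: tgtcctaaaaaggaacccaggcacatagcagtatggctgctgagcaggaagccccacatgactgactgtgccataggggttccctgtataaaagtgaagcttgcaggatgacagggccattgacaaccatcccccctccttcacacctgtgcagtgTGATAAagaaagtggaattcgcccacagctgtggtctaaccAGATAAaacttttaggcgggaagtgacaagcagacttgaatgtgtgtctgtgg
Alas2: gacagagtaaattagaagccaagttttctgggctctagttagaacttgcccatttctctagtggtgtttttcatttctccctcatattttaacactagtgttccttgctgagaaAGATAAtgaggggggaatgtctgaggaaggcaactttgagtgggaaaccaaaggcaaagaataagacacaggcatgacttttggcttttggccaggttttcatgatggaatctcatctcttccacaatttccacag
Klf1: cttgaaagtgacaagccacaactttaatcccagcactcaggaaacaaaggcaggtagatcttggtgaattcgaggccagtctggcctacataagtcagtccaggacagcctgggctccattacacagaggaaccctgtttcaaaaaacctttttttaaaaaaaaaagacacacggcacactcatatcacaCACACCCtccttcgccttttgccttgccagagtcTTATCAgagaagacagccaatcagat
Tfrc: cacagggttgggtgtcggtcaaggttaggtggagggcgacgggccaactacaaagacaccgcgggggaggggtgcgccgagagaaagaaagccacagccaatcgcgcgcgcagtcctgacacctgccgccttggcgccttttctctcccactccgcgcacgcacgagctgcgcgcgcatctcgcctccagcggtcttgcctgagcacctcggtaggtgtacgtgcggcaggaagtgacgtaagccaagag
The windows are chr5:65485822-65486071 (minus strand, the second of the 2 Hemgn entries), chrX:22895200-22895449 (plus strand), chr19:40158652-40158901 (minus strand) and chr11:81690319-81690568 (minus strand). Those of Hemgn and Alas2 lie inside the annotated gene, downstream of its outermost start.

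A GATA match was present in 4 of the 7 windows. The Hemgn window shown held TGATAA beginning 94 bases and AGATAA beginning 53 bases before the start, and the Alas2 window held AGATAA at 136 bases. Klf1 held TTATCA, the reverse complement of TGATAA, at 26 bases and CACACCC at 60 bases, and Rhag held TTATCA at 31 bases. No GATA match lay in the other Hemgn entry or in the Epb42 and Tfrc windows. The Klf1 window was the only 1 of the 7 with a CACCC match. Of 33469 rat promoter windows of the same length, 16.9% held a GATA match, 30.2% a CACCC match and 3.46% both. These matches are letters in a window and show neither binding nor a cause. Slc4a1 and Ahsp were not analysed for sequence here.

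The signals of Alas2, Slc4a1 and Ahsp were above all normoxia arrays in 3 of the 4 hypoxia rats and not in the fourth, while Hemgn was above all normoxia arrays in 4 of 4, with the same rat the lowest. On average these 4 genes were 2.41-fold to 3.87-fold higher in hypoxia than in normoxia. Of the 8, however, only Hemgn passed the test across all genes (adjusted p = 0.0431, limma), where 5.63% of all genes passed. That call was lost when any 1 normoxia array was left out. Epb42, Rhag, Klf1 and Tfrc differed by at most 0.44 on the log2 scale and none of them passed. With estradiol Hemgn, Alas2, Slc4a1 and Ahsp were spread from the normoxia level to the hypoxia level. With fulvestrant added all rats lay above all normoxia rats for those 4 genes, as was so for 7.13% of all genes. Tfrc followed a different order of arrays from the rest.

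**Figure D1:**
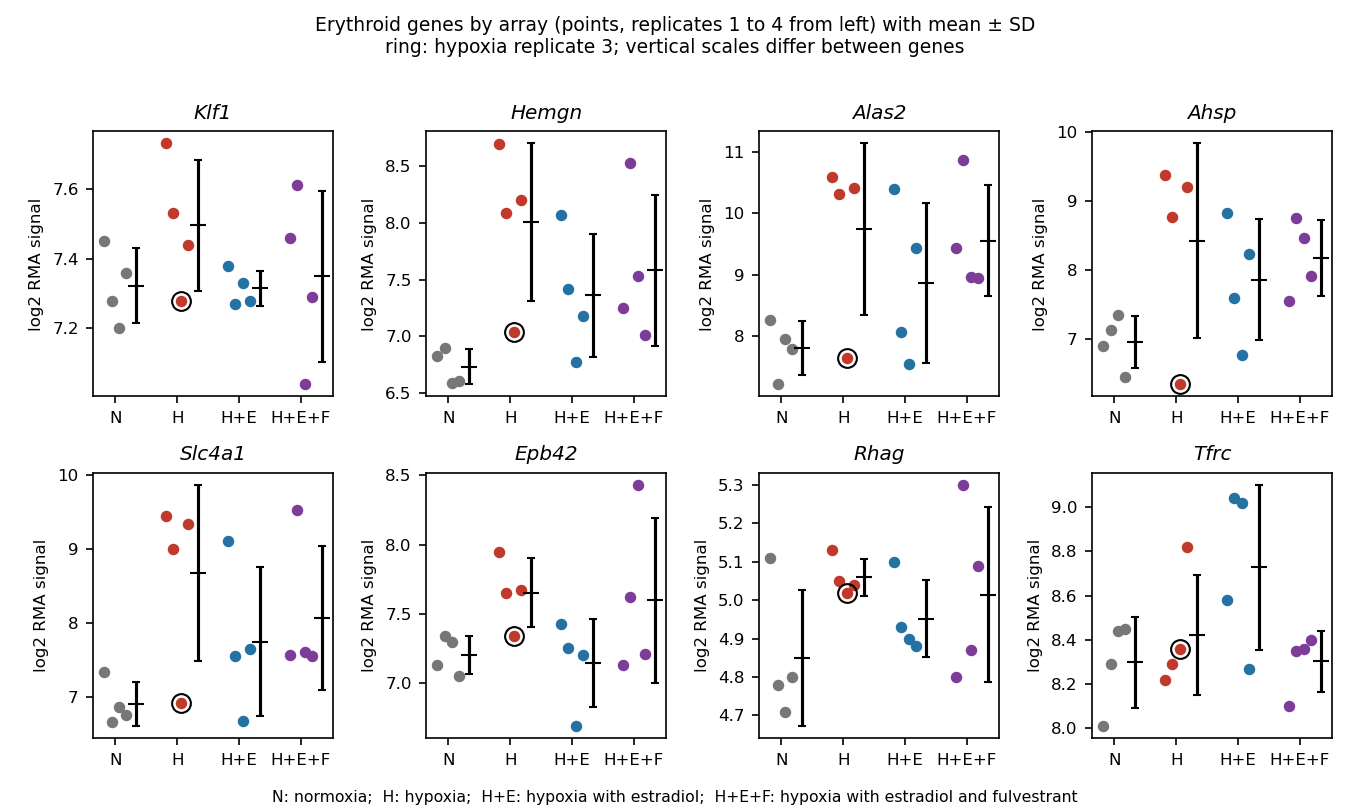
Log2 signal of each of the 8 genes on each array (points, 4 rats per group, replicates 1 to 4 from left to right) with the group mean and SD (black), for normoxia (N), hypoxia (H), estradiol in hypoxia (H+E) and both drugs in hypoxia (H+E+F); vertical scales differ between genes. The ringed hypoxia replicate 3 lies at 7.64 for Alas2, where the other hypoxia rats lie between 10.32 and 10.60.

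Hemgn and Klf1 are regulators of the lineage. Hemgn codes for hemogen, a nuclear protein of blood precursors. Its log2 signal was 6.83, 6.90, 6.59 and 6.61 in normoxia replicates 1 to 4 and 8.69, 8.09, 7.04 and 8.20 in hypoxia. It was 8.07, 7.42, 6.77 and 7.18 with estradiol and 7.25, 8.53, 7.53 and 7.01 with fulvestrant added. All hypoxia arrays and all fulvestrant arrays lay above all normoxia arrays, and 1 estradiol array lay within the normoxia range. The hypoxia mean of 8.01 ± 0.69 was 1.27 above the normoxia mean of 6.73 ± 0.16 (SD, n = 4; SE 0.35).

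Klf1, the erythroid Krüppel-like factor that switches on globin and membrane genes, was nearly level. It read 7.45, 7.28, 7.20 and 7.36 in normoxia and 7.73, 7.53, 7.28 and 7.44 in hypoxia. With estradiol it read 7.38, 7.27, 7.33 and 7.28, and with fulvestrant added 7.46, 7.61, 7.04 and 7.29. Its groups overlapped, and the difference between hypoxia and normoxia was 0.17 (SE 0.11, adjusted p = 0.408). Within the estradiol group its SD was 0.05. By the mean over all 16 arrays, Klf1, Epb42 and Rhag were among the dimmest 33.3% of genes, where differences may be understated. In normoxia, however, Hemgn (6.73), Slc4a1 (6.91) and Ahsp (6.96) had lower means than Klf1 (7.32) and Epb42 (7.21). Whether dimness held down the differences of Klf1, Epb42 and Rhag was not tested.

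Alas2 and Ahsp serve haemoglobin. Alas2, the first and rate-limiting enzyme of haem synthesis in erythroid cells, read 8.25, 7.20, 7.94 and 7.78 in normoxia and 10.60, 10.32, 7.64 and 10.41 in hypoxia. It read 10.40, 8.06, 7.53 and 9.44 with estradiol and 9.44, 10.87, 8.96 and 8.95 with fulvestrant added. Hypoxia replicate 3 lay below 3 of the normoxia arrays, while the other hypoxia arrays were above all of them. The hypoxia mean was 9.74 ± 1.41 against 7.79 ± 0.44 in normoxia (SD, n = 4), a difference of 1.95 (SE 0.67, 3.87-fold) that did not pass (adjusted p = 0.105). The SD of 1.41 was larger than for most genes: only 8 of the 14506, or 0.0551%, varied more within the hypoxia group, where the median SD was 0.115.

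Ahsp, a chaperone that binds free alpha-haemoglobin, read 6.90, 7.13, 7.35 and 6.46 in normoxia and 9.38, 8.77, 6.35 and 9.20 in hypoxia. It read 8.82, 7.60, 6.78 and 8.24 with estradiol and 7.55, 8.76, 8.47 and 7.92 with fulvestrant added. Hypoxia replicate 3 was the lowest of all 16 arrays for Ahsp, and the other hypoxia arrays were above all normoxia arrays. The difference between hypoxia and normoxia was 1.46 (SE 0.55, 2.76-fold, adjusted p = 0.14), with an SD of 1.41 in hypoxia and 0.38 in normoxia.

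Slc4a1, Epb42 and Rhag code for membrane proteins. Slc4a1 is band 3, the chloride and bicarbonate exchanger of red cells, which also anchors the membrane skeleton. It read 7.34, 6.66, 6.86 and 6.76 in normoxia, 9.44, 9.00, 6.91 and 9.34 in hypoxia, 9.10, 7.55, 6.67 and 7.65 with estradiol, and 7.57, 9.53, 7.61 and 7.55 with fulvestrant added. Hypoxia replicate 3 and estradiol replicate 3 lay within the normoxia range, and fulvestrant replicate 2 was the highest of the 16 arrays. The hypoxia mean of 8.67 ± 1.19 was 1.77 above the normoxia mean of 6.91 ± 0.30 (SD, n = 4; SE 0.58, 3.4-fold), with an adjusted p of 0.0879.

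Epb42, protein 4.2, which ties band 3 to ankyrin, read 7.13, 7.34, 7.30 and 7.05 in normoxia and 7.95, 7.65, 7.34 and 7.67 in hypoxia. It read 7.43, 7.25, 6.69 and 7.20 with estradiol and 7.13, 7.62, 8.43 and 7.21 with fulvestrant added. Of the hypoxia arrays, 3 were above the normoxia range, and the highest array of all was fulvestrant replicate 3, which was not the highest of that group for Alas2, Slc4a1 or Hemgn. The difference between hypoxia and normoxia was 0.44 (SE 0.23, adjusted p = 0.292).

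Rhag, the Rh-associated glycoprotein of the red cell membrane, had signals between 4.71 and 5.30 on all 16 arrays. Its group means were 4.85 ± 0.18 in normoxia, 5.06 ± 0.05 in hypoxia, 4.95 ± 0.10 with estradiol and 5.02 ± 0.23 when fulvestrant was added (SD, n = 4). Only 2 of the 12 arrays from hypoxic rats were above the highest normoxia array. The difference between hypoxia and normoxia was 0.21 (SE 0.10, adjusted p = 0.271).

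Tfrc, the transferrin receptor, brings iron into erythroid precursors and also into many other dividing cells. It read 8.01, 8.29, 8.44 and 8.45 in normoxia and 8.22, 8.29, 8.36 and 8.82 in hypoxia. It read 8.58, 9.04, 9.02 and 8.27 with estradiol and 8.10, 8.35, 8.36 and 8.40 with fulvestrant added. The highest Tfrc signals were in estradiol replicates 2 and 3, and estradiol replicate 3 was the lowest of its group for Hemgn, Alas2, Slc4a1, Ahsp and Epb42. The difference between hypoxia and normoxia was 0.13 (SE 0.17, adjusted p = 0.725).

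In hypoxia against normoxia 1 of the 8 genes passed, where 5.63% of all genes passed, 3.21% as higher and 2.43% as lower. All 8 differences were positive, with a median of 0.86 against 0.026 over all genes. At an unadjusted p under 0.05 in limma, 4 of the 8 were higher, namely Hemgn, Alas2, Slc4a1 and Ahsp, against 11.5% of all genes. The arrays of the 2 groups did not overlap for 1 of the 8 genes, Hemgn, against 6.74% of all genes with hypoxia higher.

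The number of genes that passed depended on single arrays, and most on hypoxia replicate 3. Among the hypoxia arrays it was the lowest for 7 of the 8 genes, all but Tfrc, and hypoxia replicate 1 was the highest for 7. Larger differences without replicate 3 therefore follow from that choice and are no added support. Without replicate 3, an alternative run for every array, 4 of the 8 genes passed, where 6.8% of all genes passed, 3.98% as higher and 2.81% as lower. Alas2 was then 6.29-fold higher (log2 2.65, SE 0.57, adjusted p = 0.0129) and Slc4a1 5.11-fold (2.35, SE 0.50, adjusted p = 0.0122). Ahsp was 4.45-fold higher (2.15, SE 0.39, adjusted p = 0.00484) and Hemgn 3.02-fold (1.59, SE 0.32, adjusted p = 0.00858). Epb42, Rhag, Klf1 and Tfrc had adjusted p between 0.201 and 0.7 in that fit.

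Replicate 3 was also set beside the other hypoxia arrays on further genes. Of 963 genes outside the erythroid lists that separated the other 3 hypoxia arrays from normoxia, 910 (94.5%) lay on the same side of the normoxia mean in replicate 3. Their mean signed difference was 0.38 there and 0.55 in the other 3 arrays. For replicates 1, 2 and 4, each set against genes chosen without it, the share was 99.8%, 99.8% and 97.1%. Their mean signed differences were 0.72, 0.58 and 0.55, against 0.68, 0.65 and 0.61 in the other hypoxia arrays. Replicate 3 thus had the lowest share and lay furthest below the rest. The normoxia arrays that set the side had also served to choose the genes, which raises every share, so no share is a test. This comparison was chosen after the values had been seen.

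The Hemgn call was not robust either. It was lost with normoxia replicate 4 counted as hypoxia (difference 0.95, adjusted p = 0.298) and without hypoxia replicate 1 (adjusted p = 0.143), 2 (0.0965) or 4 (0.0992). It was also lost without any 1 of the normoxia arrays, with adjusted p between 0.0734 and 0.0916.

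**Figure D2:**
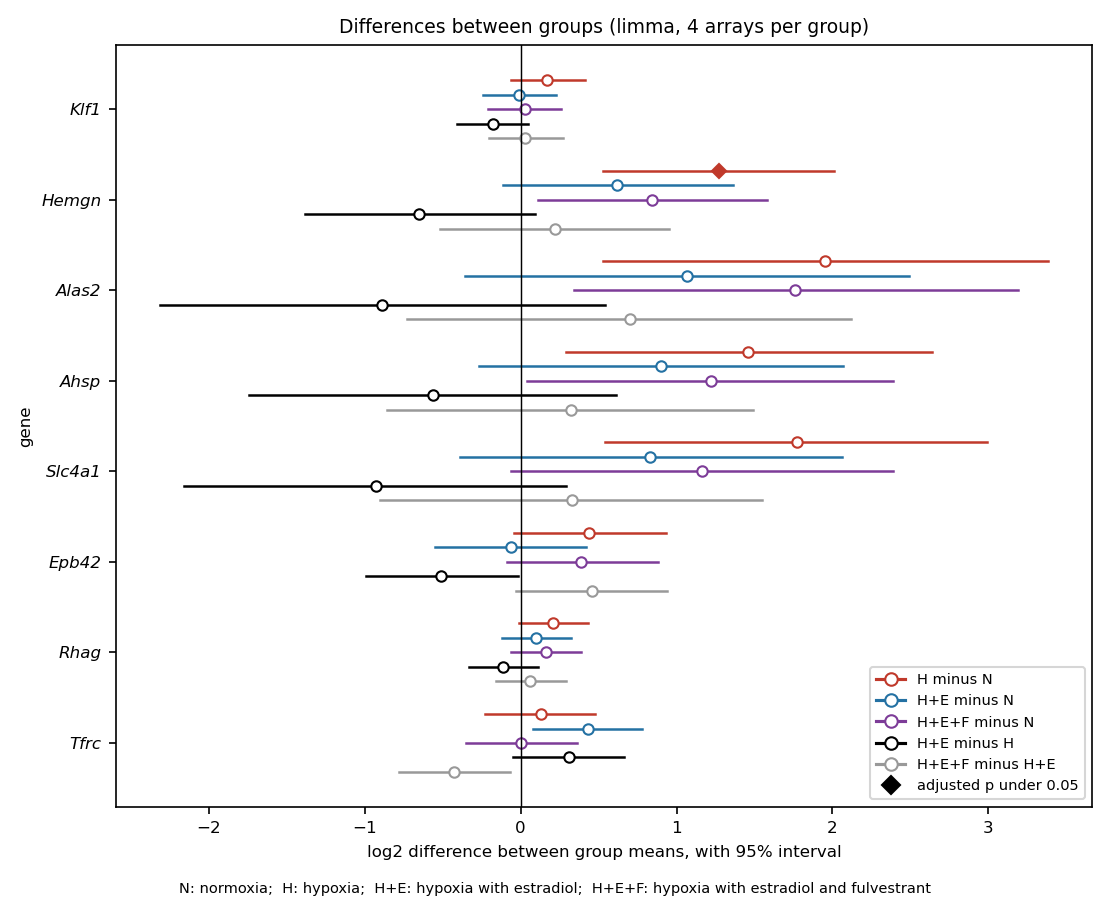
Difference between group means of the 8 genes on the log2 scale with its 95% interval from limma (lines), for 5 comparisons of the groups N, H, H+E and H+E+F; the filled diamond marks an adjusted p under 0.05. Hemgn in hypoxia against normoxia, at 1.27, is the single filled mark.

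Estradiol under hypoxia was compared with hypoxia alone. No gene of the 8 passed in limma (0 of 8, where 0.772% of all genes passed), and at an unadjusted p under 0.05 there was 1, Epb42 (difference -0.51, SE 0.23, adjusted p = 0.29), against 9.2% of all genes lower. Of the 8, 7 differences were negative, with a median of -0.54 against -0.022 over all genes. The intervals were wide: that of Alas2 (-0.89) ran from -2.31 to 0.54 and that of Slc4a1 (-0.93) from -2.16 to 0.29, so both included 0 and also a fall as large as the 1.95 and 1.77 between hypoxia and normoxia. Tfrc had the one positive difference, 0.31 (SE 0.17, adjusted p = 0.382).

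The estradiol rats differed widely from each other. The mean of Hemgn, Alas2, Slc4a1 and Ahsp above their normoxia means was 2.0, 0.56, -0.16 and 1.03 in estradiol replicates 1 to 4, against 2.43, 1.95, -0.11 and 2.19 in hypoxia. The highest estradiol array thus reached the hypoxia arrays, and the lowest lay with the normoxia arrays, which had 0.23, -0.12, 0.09 and -0.20. Estradiol replicates 2 and 3, low for these genes, had the highest neutrophil markers of the series, with a mean of 16 markers 1.12 and 0.89 above normoxia against 0.40 and 0.28 in replicates 1 and 4. The part of that difference in the erythroid values was not tested. Without estradiol replicates 2 and 3 together, an alternative added after the data were seen, the difference from hypoxia was -0.38 for Hemgn, 0.18 for Alas2, -0.30 for Slc4a1 and 0.11 for Ahsp, with a median over the 8 of -0.12. These 2 arrays were the lowest of their group for the mean of the 4 genes, so a higher group mean follows from the choice and the change of sign of Alas2 and Ahsp is no test.

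Adding fulvestrant to estradiol changed none of the 8 genes by the test (0 of 8 in limma, where 0.0483% of all genes passed). At an unadjusted p under 0.05 there was 1 gene, Tfrc, against 7.2% of all genes lower, with a difference of -0.43 (SE 0.17, adjusted p = 0.24). The other 7 differences were positive, from 0.03 for Klf1 to 0.70 for Alas2 (SE 0.67, interval -0.73 to 2.12), with a median over the 8 of 0.27 against 0.005 over all genes. In the fulvestrant rats the mean of the 4 genes above normoxia was 0.85, 2.33, 1.04 and 0.76, so 1 rat was at the level of the high hypoxia rats and the other 3 lay lower, and the estradiol arrays overlapped them.

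Hypoxia with estradiol against normoxia also gave 0 of 8 in limma, where 5.21% of all genes passed. The differences ran from -0.06 for Epb42 to 1.07 for Alas2 (SE 0.67, adjusted p = 0.448), with a median of 0.53 against 0.000 over all genes. Tfrc was the 1 gene with an unadjusted p under 0.05, against 9.44% of all genes higher, at 0.43 (SE 0.17, adjusted p = 0.171). Without estradiol replicate 4, which had the lowest Tfrc of its group, Tfrc passed (0.58, adjusted p = 0.0333).

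Hypoxia with estradiol and fulvestrant against normoxia gave 0 of 8 as well, where 2.96% of all genes passed, although the arrays did not overlap for 4 of the 8 genes, with Hemgn, Alas2, Slc4a1 and Ahsp higher in all rats, against 7.13% of all genes. In limma 3 genes were higher at an unadjusted p under 0.05, against 8.52% of all genes. Alas2 was 3.4-fold higher (log2 1.76, SE 0.67, adjusted p = 0.206), Ahsp 2.32-fold (1.22, SE 0.55, adjusted p = 0.304) and Hemgn 1.79-fold (0.84, SE 0.35, adjusted p = 0.245). Slc4a1 was 2.24-fold higher (1.16, SE 0.58, adjusted p = 0.358), and its difference was 0.67 without fulvestrant replicate 2. The median of the 8 differences was 0.62 against 0.004 over all genes. When the model held only these 2 groups, Alas2 (adjusted p = 0.0387) and Ahsp (adjusted p = 0.0329) passed. The 3 comparisons with normoxia share its 4 arrays.

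Against hypoxia alone, hypoxia with estradiol and fulvestrant gave 0 of 8, where 0% of all genes passed. At an unadjusted p under 0.05 none of the 8 did in limma, against 6.96% of all genes. All 8 differences were negative, from -0.60 for Slc4a1 (interval -1.83 to 0.62) to -0.05 for Rhag, with a median of -0.17 against -0.016 over all genes. A moderated F test over the 4 groups called none of the 8 genes, where 6.28% of all genes were called. Its adjusted p ran from 0.122 for Hemgn to 0.591 for Klf1, and its unadjusted p was 0.0163 for Hemgn and 0.0415 for Alas2.

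In the order of group means, Hemgn, Alas2, Slc4a1 and Ahsp ran from normoxia, the lowest, to estradiol, then estradiol and fulvestrant, and then hypoxia alone. Of the neighbouring groups in that order, none differed past the test for any of the 4 genes. Rhag had the same order, with means within 0.21 of each other. Epb42 was lowest with estradiol, Klf1 was highest in hypoxia, and Tfrc was highest with estradiol.

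The genes varied together from rat to rat. For Hemgn, Alas2, Slc4a1 and Ahsp the 6 pairwise Pearson correlations over the 16 arrays were between 0.89 and 0.96, and between 0.83 and 0.95 after subtracting each group's mean, so the shared variation was also found inside the groups. These correlations share their arrays and their RNA, and the 16 arrays form 4 groups. Over the 7 genes without Tfrc, the 21 correlations ran from 0.03 to 0.96 with a median of 0.64. After subtracting each group's mean they ran from -0.24 to 0.95 with a median of 0.61. Tfrc had correlations between -0.24 and -0.01 with the other 7.

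**Figure D3:**
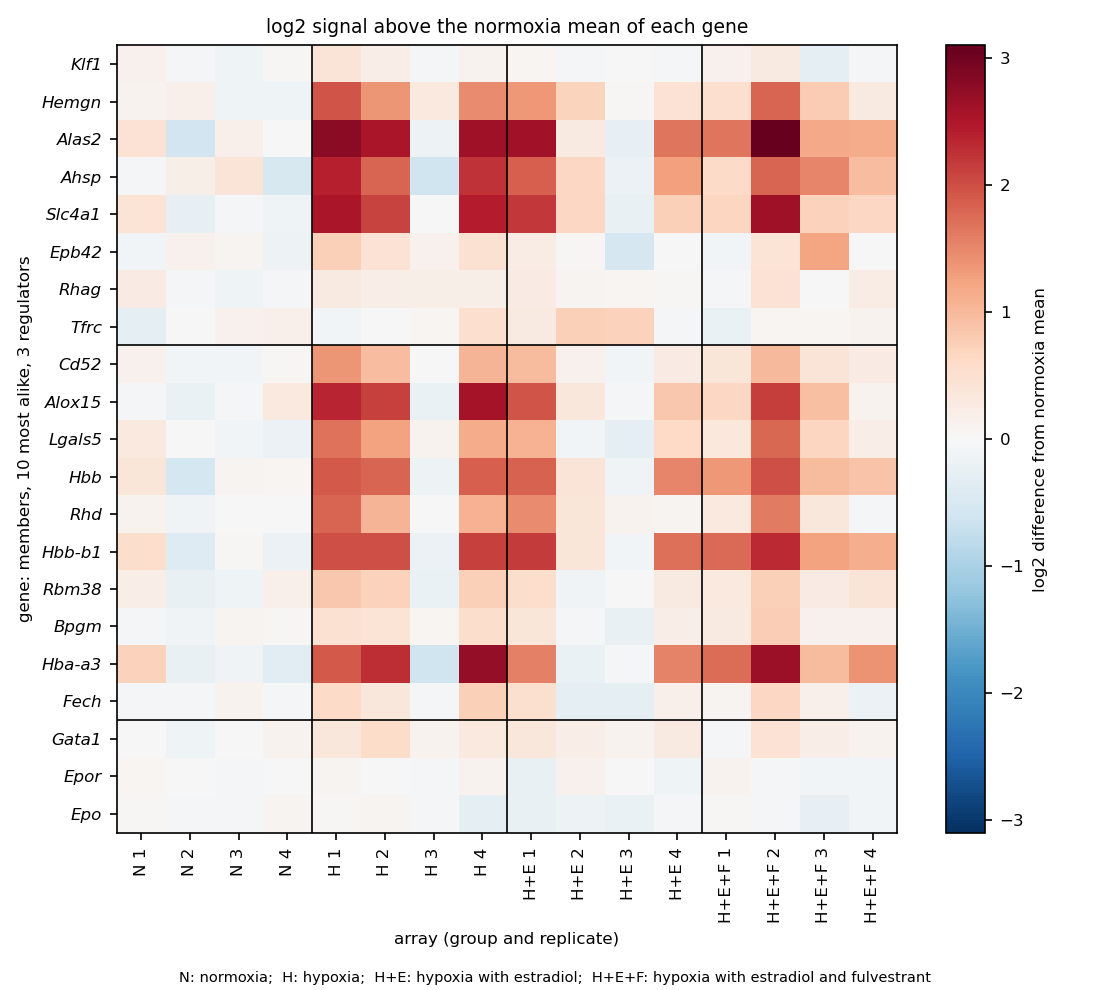
Log2 difference of each gene (rows) from its normoxia mean on each of the 16 arrays (columns, replicates 1 to 4 of each group), for the 8 erythroid genes, the 10 genes most alike and 3 regulators; red is higher and blue lower than normoxia. The columns H 3 and H+E 3 are near white for Alas2, Slc4a1 and Ahsp, at values such as 7.64 and 7.53 for Alas2, and H 1 and H+E+F 2 are dark.

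The 10 other genes whose signal was most alike to the mean of the 8, by Pearson correlation over 16 arrays, were Cd52 (0.975), Alox15 (0.968), Lgals5 (0.953), Hbb (0.934), Rhd (0.931), Hbb-b1 (0.919), Rbm38 (0.912), Bpgm (0.901), Hba-a3 (0.886) and Fech (0.877). Hbb, Hbb-b1 and Hba-a3 are globin genes, Fech completes haem synthesis, Bpgm makes the ligand that loosens oxygen from haemoglobin, Rhd is a Rh antigen, and Alox15 is known in rabbits as the lipoxygenase of reticulocytes. Cd52 codes, in humans, for a surface glycoprotein of lymphocytes, and Lgals5 is a galectin found on rat red cells. None of the 10 passed in hypoxia against normoxia, with differences from 0.38 (Bpgm) to 1.71 (Alox15). They were chosen for following the 8 genes over these arrays, hypoxia replicate 3 included, so a low value there follows from the choice and supports nothing.

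Alox15 read 8.40, 8.22, 8.36 and 8.74 in normoxia and 10.80, 10.55, 8.23 and 11.00 in hypoxia. It read 10.38, 8.79, 8.37 and 9.27 with estradiol and 9.07, 10.57, 9.37 and 8.55 with fulvestrant added. Hypoxia replicate 3 was at the normoxia level and the other hypoxia arrays were above it. The difference between hypoxia and normoxia was 1.71 (SE 0.55, adjusted p = 0.0855).

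Hbb, a beta-globin, read 11.81, 10.90, 11.53 and 11.51 in normoxia and 13.34, 13.25, 11.29 and 13.28 in hypoxia. It read 13.27, 11.84, 11.34 and 12.95 with estradiol and 12.79, 13.43, 12.41 and 12.31 with fulvestrant added. Globin RNA was thus present on the normoxia arrays, and hypoxia replicate 3 and estradiol replicate 3 lay at that level. The difference between hypoxia and normoxia was 1.35 (SE 0.46, adjusted p = 0.104).

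Of the 18 globin symbols listed, 6 were measured as single genes. None passed in hypoxia against normoxia, 4 were higher at an unadjusted p under 0.05 in limma, against 11.5% of all genes, all 6 differences were positive and their median was 0.78. Without hypoxia replicate 3, 3 passed, against 3.98% of all genes as higher: Hba-a3, Hbb and Hbb-b1, all of them also among the 10 genes chosen above. The other 3 measured globins were Hbe1 (0.21, SE 0.07, adjusted p = 0.111), which was the fourth with an unadjusted p under 0.05, Hbe2 (0.06, SE 0.09) and Hbg1 (0.09, SE 0.13). Probe sets shared by several globin genes were not among the 6. In hypoxia against normoxia that of Hbb-bs and Hbb-b1 differed by 1.28 (SE 0.43). Those of Hba-a2 and Hba-a1 differed by 0.50 and 0.51 (SE 0.21), and a value of 14.21 in hypoxia replicate 1 was the maximum of that array.

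The other erythroid genes were taken by function. Of 12 other haem synthesis genes 0 passed in hypoxia against normoxia, and 0 had an unadjusted p under 0.05 in limma, against 20.4% of all genes, with a median difference of 0.03. Their largest difference was that of Fech (0.41, SE 0.19, adjusted p = 0.251), and Alas1, the enzyme that starts haem synthesis in other tissues, had -0.29 (SE 0.19). With estradiol against normoxia 1 of the 12 rose, against 2.87% of all genes, the mitochondrial glycine carrier Slc25a38 (0.24, SE 0.06, adjusted p = 0.0424).

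Of 14 other genes of the red cell membrane and skeleton, 1 rose and 1 fell in hypoxia against normoxia, with a median of 0.04. Of all genes 3.21% rose and 2.43% fell. At an unadjusted p under 0.05 in limma 5 were higher and 3 lower, against 11.5% and 8.98% of all genes. Aqp1, the water channel of red cells and also of lung endothelium, rose by 0.32 (SE 0.07, adjusted p = 0.0189), and Epb41, protein 4.1, fell by 0.38 (SE 0.07, adjusted p = 0.00349). Without hypoxia replicate 3 there were 3 higher and 1 lower, since Rhd (1.31, SE 0.36, adjusted p = 0.041) and Ank1, the ankyrin of red cells (0.31, SE 0.09, adjusted p = 0.047), also passed. Aqp1 was also higher than in normoxia with estradiol (0.32, adjusted p = 0.0213) and with fulvestrant added (0.39, adjusted p = 0.00655). Of 16 genes of late erythroid maturation 0 passed, 4 were higher at an unadjusted p under 0.05 in limma, against 11.5% of all genes, and the median was 0.04. Without hypoxia replicate 3, 1 of the 16 passed, Alox15 (2.35, SE 0.43, adjusted p = 0.00533). In that fit 3.98% of all genes passed as higher and 2.81% as lower.

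Of 13 erythroid transcription factors 0 rose and 3 fell in hypoxia against normoxia, against 3.21% and 2.43% of all genes, with a median of -0.12. Those that fell also act in other blood cells: Ikzf1 (-0.64, SE 0.12, adjusted p = 0.00353) and Bcl11a (-0.50, SE 0.13, adjusted p = 0.0277) in lymphocytes, and Gata2 (-0.58, SE 0.14, adjusted p = 0.0247) in blood stem cells and mast cells. In the same comparison 7 of 12 T cell markers and 2 of 7 B cell markers fell, against 2.43% of all genes. Which cells these falls came from was not tested. Gata1 differed by 0.32 (SE 0.11, adjusted p = 0.0942), and by 0.40 without hypoxia replicate 3 (adjusted p = 0.0394). Without that array Bcl11a no longer passed (-0.46, adjusted p = 0.0576), so that 1 factor was higher and 2 were lower. The shares of all genes were then 3.98% and 2.81%.

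Of 11 genes of erythropoietin signalling, 0 rose and 1 fell in hypoxia against normoxia, against 3.21% and 2.43% of all genes. Kit, the receptor of stem cell factor on early precursors and on mast cells, fell by 0.73 (SE 0.09, adjusted p = 0.000173) and was also lower with estradiol (-0.75, adjusted p = 0.000126) and with fulvestrant added (-0.56, adjusted p = 0.00159). Epo, the hormone, differed by -0.05 (SE 0.08, adjusted p = 0.782) and its receptor Epor by 0.03 (SE 0.08, adjusted p = 0.861). Epo signals lay between 6.21 and 6.58 on all arrays, and no difference in Epo was detected in the lung. They were below every signal of Klf1, itself among the dimmest 33.3% of genes, where differences may be understated. Whether this probe set read Epo RNA at all was not tested. Jak2, the kinase bound to the receptor, was higher with estradiol than in hypoxia (0.29, SE 0.06, adjusted p = 0.0419) and than in normoxia (0.28, adjusted p = 0.0167), and Stat5b was lower with estradiol than in normoxia (-0.27, adjusted p = 0.0139).

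Of 20 other iron-handling genes 4 rose and 0 fell in hypoxia against normoxia, against 3.21% and 2.43% of all genes, with a median of 0.18. They were the siderophore-binding Lcn2 (1.26, SE 0.31, adjusted p = 0.0269), the haem-degrading Hmox1 (0.87, SE 0.24, adjusted p = 0.0472), the ferroxidase Cp (0.55, SE 0.10, adjusted p = 0.00497) and the ferrireductase Steap3 (0.46, SE 0.10, adjusted p = 0.0101). Hmox1 was also higher with estradiol than in normoxia (1.10, SE 0.24, adjusted p = 0.0163). The same 4 iron genes passed without hypoxia replicate 3, where 3.98% of all genes passed as higher. Of 10 markers of red pulp and erythroblast island macrophages, 2 rose in hypoxia, Hmox1 and Maf (0.35), against 3.21% of all genes. Without hypoxia replicate 3 Siglec1 passed as well (0.98, adjusted p = 0.029 in limma). With estradiol against normoxia Siglec1 (0.88) and Hmox1 were higher and Adgre1 (-0.34) was lower, and with fulvestrant added Maf was higher (0.33).

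Means of markers of other blood and dividing cells moved less between hypoxia arrays than those of Hemgn, Alas2, Slc4a1 and Ahsp and of globins. Other erythroid lists moved less as well. In replicates 1 to 4 the mean of 12 haem synthesis genes was 0.02, 0.00, -0.04 and 0.09. For 14 membrane and skeleton genes it was 0.15, 0.13, -0.08 and 0.11. It was -0.10, -0.16, -0.19 and -0.22 for 13 transcription factors and 0.31, 0.21, -0.05 and 0.25 for 16 late maturation genes. In hypoxia replicates 1 to 4 the mean of 6 globin genes above normoxia was 1.17, 1.08, -0.16 and 1.09. Of these, Hbe1, Hbe2 and Hbg1 had hypoxia means of 6.29, 4.58 and 5.67, against 6.08, 4.52 and 5.58 in normoxia. Their small differences lowered the globin mean on the high arrays. The mean of 7 platelet and megakaryocyte markers was 0.27, -0.02, -0.09 and 0.21, and that of 12 T cell markers was -0.66, -0.50, -0.62 and -0.42. Neutrophil markers were at -0.04, -0.28, -0.63 and -0.31 and 18 mitosis genes at 0.33, 0.17, 0.09 and 0.62. The mean of 7 B cell markers was -0.59, -1.11, -0.49 and -0.51. Hypoxia replicate 3 was thus also the lowest of its group for platelet, neutrophil and mitosis genes, by smaller amounts, but not for T or B cell markers. The part of blood remaining in the flushed vessels was not tested.

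The markers of white cells had passing genes of their own. In hypoxia against normoxia the T cell genes Il7r (-0.78), Trat1 (-0.75), Ccr7 (-0.72) and Cd3d (-0.69) and the B cell genes Cd22 (-0.81) and Pou2af1 (-0.51) were lower. Without hypoxia replicate 3, 6 of the 12 T cell markers were lower, all but Cd3d of the 7 (adjusted p = 0.0674), and 3 of the 7 B cell markers, with Blk (-0.54, adjusted p = 0.012) added. In that fit 2.81% of all genes passed as lower and 3.98% as higher. Of the 18 mitosis genes 3 passed as higher there, Cdk1 (0.81), Ccnb2 (0.62) and Birc5 (0.31), where 0 had passed with the array. So did 1 of the 7 platelet markers, Selp (0.65), while the lung marker Rtkn2 was lower (-0.23). In hypoxia with estradiol against hypoxia 8 of 16 neutrophil markers rose, against 0.31% of all genes. Among them were Mmp8 (1.94), Fcar (1.82), S100a8 (1.74) and Retnlg (1.73). The T cell gene Il7r was also higher (0.90). Against normoxia, estradiol rats had higher Fcar (1.26) and S100a8 (1.19) and lower Ccr7 (-0.50) and Pou2af1 (-0.50), with Ikzf1 at -0.41 and Epb41 at -0.36. Of the lung markers, Rtkn2 was lower with estradiol (-0.23) and with fulvestrant added (-0.25) than in normoxia, and of the markers of other organs Cela1 was higher in hypoxia (0.52).

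**Figure D4:**
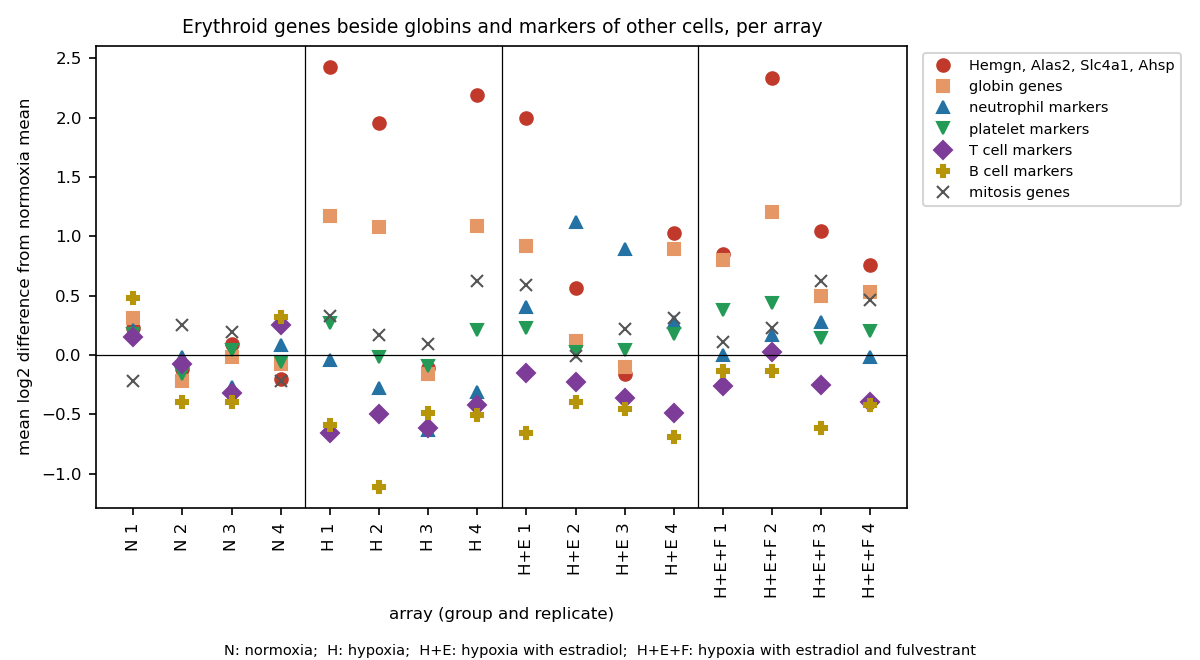
Mean log2 difference from normoxia on each array (horizontal axis, replicates 1 to 4 of N, H, H+E and H+E+F) of Hemgn, Alas2, Slc4a1 and Ahsp (red circles), 6 globin genes (squares) and markers of other cells. The erythroid mean is 2.43, 1.95, -0.11 and 2.19 in the 4 hypoxia arrays, and the globin mean is 1.17, 1.08, -0.16 and 1.09. The globin mean includes Hbe1, Hbe2 and Hbg1, which differed little between hypoxia and normoxia.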

How the data were processed

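Lung RNA of 16 rats was measured on 1 array each. The deposited values are log2 signals, made by the authors with RMA and Partek, per the submitters' processing notes, which give no versions or settings. RMA corrects background, aligns arrays and summarises probes, so a shift of most genes would not be seen and differences of dim probe sets may be understated. An array has no count depth, and the precision is limited by having 4 arrays in a group.

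Of 29214 probe sets, 15310 had 1 gene symbol in the platform annotation, 323 several and 13581 none. The probe set with the highest mean was kept, giving 14506 genes, of which 14480 matched RefSeq. Differences were fitted with limma 3.58.1 in R 4.3.3, in 1 model of 4 group means with empirical Bayes moderation, for 6 comparisons. Adjusted p-values are Benjamini-Hochberg over all genes, threshold 0.05; "passed", "rose" and "fell" mean adjusted p under it. The method was tested on simulated data.

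Groups follow the titles, and replicate numbers follow submission order and pair nothing. The labels do not say whether rats of a group shared a litter or cage. The genes and gene lists were chosen with earlier results of these data known. Named genes were the 8, up to 4 passing genes per list and comparison with the largest changes, Epo, Epor, Gata1, and the 10 genes most correlated with the mean of the 8, placeholder symbols skipped. Genes named beyond this rule, such as Alas1, Hbe1, Hbe2, Hbg1 and genes whose call changed without hypoxia replicate 3, were chosen after their values were seen. Alternatives were median centring, quantile normalization again, leaving out the dimmest 33.3% of genes, averaging or testing every probe set, fitting only the 2 groups compared, array weights, a trended robust variance prior, normoxia replicate 4 as hypoxia, and leaving out each array.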

Additional observations from a re-analysis of the deposited data

Results flagged for a closer look

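A sample was singled out where its gap to the nearest of the 4 arrays of its group was most of the group's whole range (Dixon's criterion at 95%). Of 32 such checks on the 8 erythroid genes 2 met it, and of 196 over all named genes 14 did. Chance alone singles out about 1 in 20 groups.

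For Alas2, hypoxia replicate 3 was at 7.64 and the other hypoxia arrays between 10.32 and 10.60. For Slc4a1, fulvestrant replicate 2 was at 9.53 and the other arrays of that group between 7.55 and 7.61. Hypoxia replicate 3 also stood apart for Alox15 (8.23, others 10.55 to 11.00), Hbb (11.29, others 13.25 to 13.34), Hbb-b1 (10.51, others 12.67 to 12.79) and Rbm38 (8.81, others 9.73 to 9.84), which were chosen for their likeness to the 8 genes, and for Gata2, where it was the highest (10.99, others 10.72 to 10.75).

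The other such values were Epor in fulvestrant replicate 1 (7.46, others 7.28 to 7.29), Fech in normoxia replicate 3 (8.92, others 8.75 to 8.77), Kit in normoxia replicate 1 (10.78, others 10.56 to 10.59) and Rtkn2 in normoxia replicate 1 (12.57, others 12.40 to 12.42). Hmox1 in estradiol replicate 1 was at 9.66 (others 8.80 to 8.94), Retnlg in estradiol replicate 2 at 9.84 (others 8.87 to 9.00) and Pou2af1 in fulvestrant replicate 3 at 8.20 (others 8.63 to 8.67).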

How the results depend on the processing

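Of 1230 repeats of the 48 differences (8 genes, 6 comparisons) under 26 alternatives, 1164 kept their direction and their side of the threshold, 12 lost a call, 6 gained one and 48 changed sign. In hypoxia against normoxia the number of the 8 genes that passed went from 1 to 0 when every probe set was tested (Hemgn adjusted p = 0.0643), with the trended robust prior (0.0613) and with normoxia replicate 4 counted as hypoxia, and lay between 0 and 4 when 1 array was left out. Hemgn also missed the threshold without fulvestrant replicate 1 (0.0516) or 3 (0.0562). Leaving out the dimmest 33.3% of genes removed 3 of the 8, Epb42, Rhag and Klf1. The median of the rest was then 1.46 in hypoxia against normoxia, and 1.16 with fulvestrant added against normoxia. With all 8 genes these medians were 0.86 and 0.62, and the 3 removed genes lay below them in both comparisons. Dimness was judged by the mean over all 16 arrays, which a rise in the hypoxic groups lifts. In normoxia Hemgn (6.73), which was kept, was dimmer than Epb42 (7.21) and Klf1 (7.32). The higher medians therefore follow from which genes were removed and are no added support. In hypoxia with estradiol against normoxia the number that passed lay between 0 and 1 when 1 array was left out. With fulvestrant added against normoxia it was 2 when only the 2 groups were fitted. The cause of these moves was otherwise not tested.

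Sign changes outside single left-out arrays were these. Without estradiol replicates 2 and 3, estradiol minus hypoxia was 0.18 for Alas2 and 0.11 for Ahsp, fulvestrant added minus estradiol was -0.05 for Hemgn, -0.36 for Alas2, -0.30 for Slc4a1 and -0.35 for Ahsp, and estradiol minus normoxia was 0.11 for Epb42; these 2 arrays were the lowest of their group for the mean of Hemgn, Alas2, Slc4a1 and Ahsp, so the direction of the moves of these 4 genes follows from the choice. For Klf1, estradiol minus normoxia was 0.02 with median centring, and 0.01 with quantile normalization, with normoxia replicate 4 as hypoxia and without estradiol replicates 2 and 3. With normoxia replicate 4 as hypoxia, fulvestrant added minus hypoxia was 0.20 for Alas2, 0.07 for Epb42, 0.01 for Rhag and 0.15 for Ahsp.

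With 1 array left out, the differences that changed sign had these ranges. Hypoxia minus normoxia ran from -0.01 to 0.19 for Tfrc. Fulvestrant added minus estradiol ran from -0.10 to 0.45 for Hemgn, -0.16 to 0.78 for Slc4a1, -0.03 to 0.14 for Rhag, -0.04 to 0.64 for Ahsp and -0.05 to 0.14 for Klf1. Estradiol minus normoxia ran from -0.16 to 0.09 for Epb42 and -0.05 to 0.04 for Klf1, and fulvestrant added minus normoxia from -0.06 to 0.13 for Klf1 and -0.09 to 0.07 for Tfrc. Fulvestrant added minus hypoxia ran from -0.89 to 0.10 for Alas2, -0.33 to 0.10 for Epb42, -0.14 to 0.03 for Rhag, -0.94 to 0.07 for Ahsp and -0.19 to 0.01 for Tfrc.

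Counts over all genes moved too. Hypoxia against normoxia had 817 genes, 40 with normoxia replicate 4 as hypoxia and 428 to 986 with 1 array left out. Estradiol against hypoxia had 112 genes, 4 over every probe set, 5 with only the 2 groups, 4 with array weights, 0 with normoxia replicate 4 as hypoxia or without estradiol replicates 2 and 3, and 3 to 355 with 1 array left out. Fulvestrant added against estradiol had 7 genes, 12 after quantile normalization, 77 without the dimmest 33.3%, 1 over every probe set, 44 with the trended prior, 0 with only the 2 groups or without estradiol replicates 2 and 3, and 0 to 331 with 1 array left out. Estradiol against normoxia had 756 genes, 216 with only the 2 groups, 351 with normoxia replicate 4 as hypoxia, 325 without estradiol replicates 2 and 3 and 384 to 887 with 1 array left out. Fulvestrant added against normoxia had 430 genes, 786 with array weights, 100 with normoxia replicate 4 as hypoxia and 238 to 495 with 1 array left out. Fulvestrant added against hypoxia had 0 genes, and 0 to 2 under the alternatives. No paired analysis was possible because the labels give no replicate numbers that the groups share.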
